A study of Mus musculus with 23 samples.

Results

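The 44 genes described here encode the structural extracellular matrix and the proteins bound to it: fibrillar and other collagens, basement membrane proteins, elastic fibre proteins and fibronectin, proteoglycans, lysyl oxidases and matricellular proteins. They were taken by gene symbol from a list chosen with earlier results of these data known, each through its probe set with the highest mean. Of the 44, 42 were measured, among 18193 genes with a probe set of their own. Fbn1 and Loxl2 are not analysed here. All 42 passed the filter on dim probe sets and lay above its floor, a log2 intensity of 4.79, on all 23 arrays. RNA came from mouse embryonic fibroblasts, primary cells grown from whole embryos, and every group, controls included, carried a retroviral H-Ras V12 mutant, an oncogene that drives fibroblasts with functional p53 into senescence. The groups differed in p53, the tumour suppressor and transcription factor, whose activation domains are disrupted singly or together in the mutants. The knock-in alleles sit behind a stop cassette (LSL) that blocks them until Cre recombinase from an adenovirus removes it.

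The Null group (n = 6) joined 3 arrays of LSL-WT cells given the adenovirus Adeno-Empty, whose stop cassette stays in place, with 3 arrays of p53-null cells given Adeno-Cre (Null Cre). The WT group (n = 6) joined 3 arrays of LSL-WT cells with Adeno-Cre (LSL-WT Cre) and 3 arrays of p53_WT cells with Adeno-Cre (WT Cre). The other groups were LSL-25,26 with Adeno-Cre, in which the first activation domain is disrupted (n = 5), LSL-53,54 with Adeno-Cre, in which the second is disrupted (n = 3), and LSL-QM with Adeno-Cre, in which both are disrupted (n = 3). The strain was 129/Sv or mixed 129/Sv/C57BL6. The mixed arrays numbered 2 of 6 in Null, 1 of 3 in QM, 1 of 5 in 25,26, 2 of 3 in 53,54 and 3 of 6 in WT. In Null they were replicates 1 and 3, both LSL-WT Empty, and every Null Cre array was 129/Sv. In WT they were replicates 1 and 3 of LSL-WT Cre and replicate 6 of WT Cre. Strain was thus not balanced between the lines joined in Null, and its part in their differences was not tested. The third WT Cre array, WT replicate 6, carries an LSL-WT genotype label that differs from its title. The sample titles do not name embryos or cultures, so p-values measure the spread between these samples.

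Fibroblasts are the main makers of interstitial matrix. They secrete collagens as triple-helical precursors, which are trimmed outside the cell, assembled into fibrils and crosslinked by lysyl oxidases, while small leucine-rich proteoglycans bind the fibrils and set their spacing. Basement membranes are a separate sheet of type IV collagen, laminins, nidogens and perlecan, and elastic fibres form from elastin on a scaffold of fibrillins and fibulins. Matricellular proteins such as thrombospondins, SPARC and periostin are secreted into the matrix and act on cells more than as building blocks.

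Levels are log2 values of the intensities that the authors deposited, and a level is compared only with the same gene's level in other arrays. The labels were checked on Cdkn1a and Mdm2, direct p53 targets. Cdkn1a spanned 10.25 to 11.75 in Null, 10.64 to 11.18 in QM, 11.58 to 12.33 in 25,26, 13.22 to 13.91 in 53,54 and 13.33 to 14.09 in WT. Mdm2 spanned 10.27 to 10.44 in Null and 12.60 to 13.65 in WT. All 12 fibroblast markers were above the floor on all arrays, from Vim at 14.52 to 14.72 to Fap at 5.34 to 8.28. The log2 of their summed intensity lay between 15.62 and 16.17, a sum to which the brightest probe sets contribute most. Such a sum cannot tell apart fewer cells of a type and less RNA per cell. Over the matrix genes 2 arrays stood apart from the others of their line and virus: Null replicate 4 lay above its subgroup mean for 35 of 42 genes (mean deviation 0.34) and WT replicate 6 for 36 of 42 (0.41). Leaving out either array ended none of the 8 calls between WT and Null described next.

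**Figure D1:**
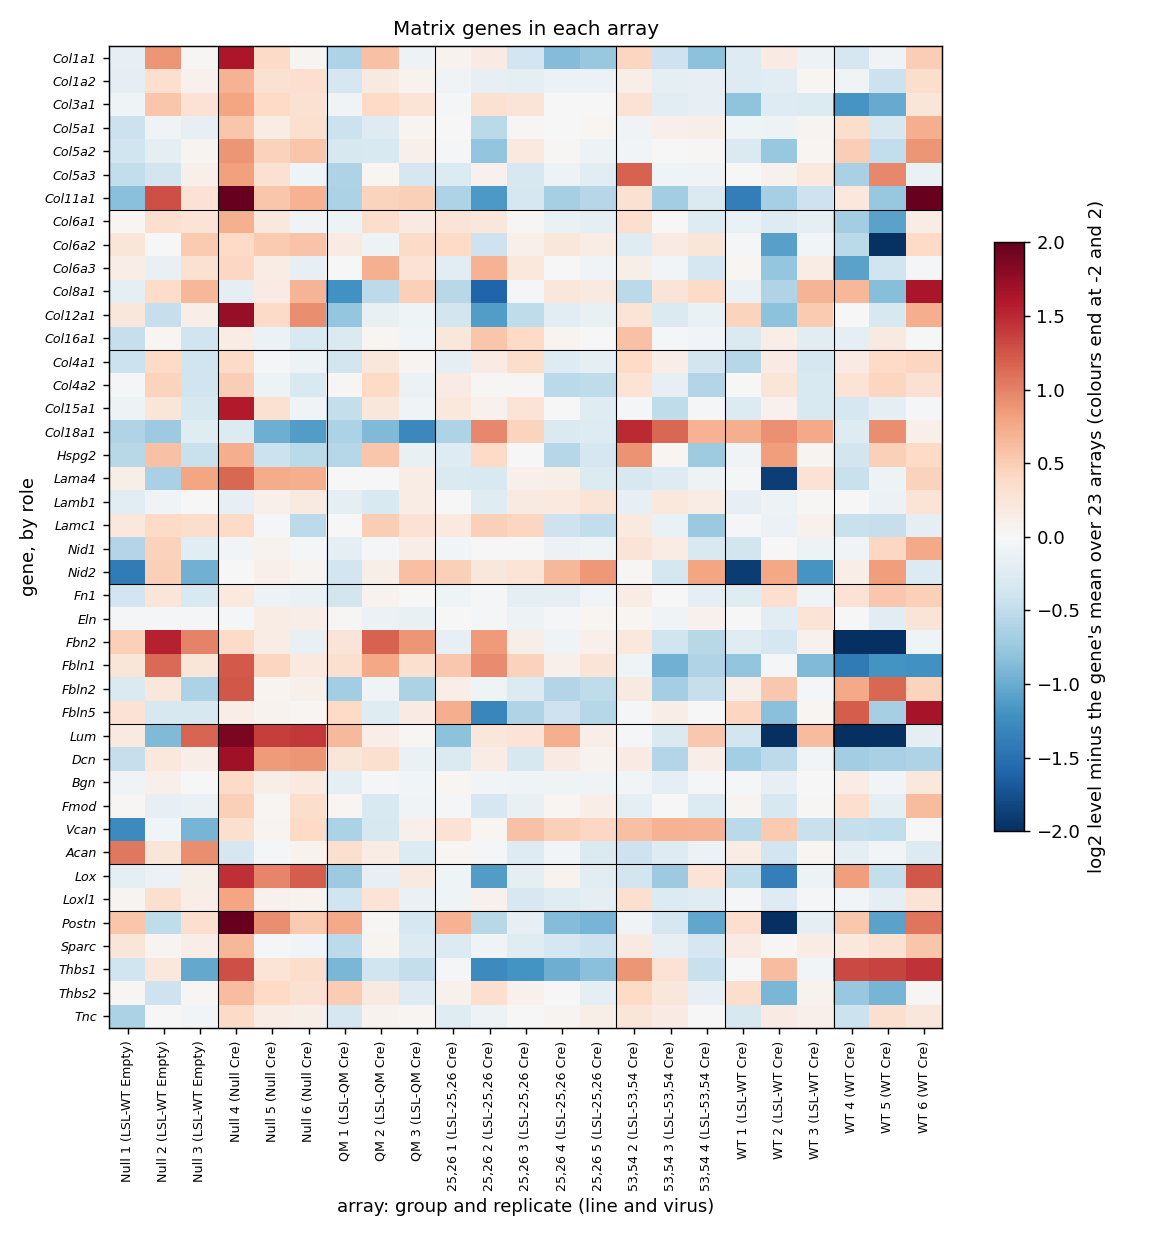
Level of each of the 42 matrix genes (rows, grouped by role) in each of the 23 arrays (columns, grouped by line and virus), as the log2 level minus the gene's mean over all arrays. Red is above and blue below that mean. Lum and Dcn are red in all 3 Null Cre columns, and Fbln1 is blue in all 3 WT Cre columns.

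Between WT and Null, 8 of 42 matrix genes differed at an adjusted p under 0.05: Col18a1 was higher in WT, and Lum, Fbn2, Fbln1, Dcn, Col6a2, Col3a1 and Col6a1 were lower. The test was limma's moderated test with Benjamini-Hochberg adjustment over 15266 genes, in which 22.7% of all genes were called either way, 10.9% higher and 11.8% lower. The matrix genes were called in 19.0% of cases, so their share lay near that of all genes, and the median difference was -0.18 against 0.00 over all genes tested. By role, 1 of 7 fibrillar collagens fell (median -0.36), as did 2 of 6 other collagens (median -0.43), 2 of 6 elastic fibre and fibronectin genes (median 0.15) and 2 of 6 proteoglycans (median -0.27). Of 10 basement membrane genes 1 rose and none fell (median 0.04), and none of the 2 lysyl oxidases (median -0.46) or 5 matricellular genes (median 0.02) was called. Of all 17 collagens, 1 rose and 3 fell (median -0.36). These counts describe the lists and say nothing particular to them. Arrays with the same number in their titles deviated together. In a fit blocked on that number the same 8 were called with Lamc1 (fell by 0.44, adjusted p = 0.0034), Acan (fell by 0.49, adjusted p = 0.041) and Fn1 (rose by 0.32, adjusted p = 0.027), 11 of 42 beside 33.8% of all genes. The calls depended on the controls: with LSL-WT Empty alone as Null, a setting added after seeing the data, 6 were called, Col18a1 and Thbs1 (1.18, adjusted p = 0.043) higher and Fbn2, Fbln1, Col3a1 and Acan (-0.86, adjusted p = 0.0016) lower, beside 16.5% of all genes. With Null Cre alone 11 were called beside 16.6% of all genes.

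Marker lists were counted between WT and Null as well, where 22.7% of all genes were called. The part of these markers in the matrix differences was not tested. The share called was 90.9% of proliferation, 40% of epithelial, 37.5% of smooth muscle and 33.3% of fibroblast genes. In the smaller lists it was 28.6% of macrophage and of striated muscle genes, 20% of bone and 33.3% of adipocyte genes. Of 11 proliferation genes 10 were lower in WT, with a summed log2 level of 13.12 to 14.53 in WT against 14.94 to 15.37 in Null, and 13.45 to 14.30 in 53,54, 14.08 to 15.08 in 25,26 and 15.01 to 15.28 in QM. Of 12 fibroblast genes 4 were lower (Pdgfra -1.23, Fap -1.10, Prrx1 -0.55, Pdgfrb -0.83), with sums of 15.62 to 16.12 in WT and 15.76 to 16.17 in Null. Of 10 tested epithelial genes 4 were higher, led by Dsp (3.10), 6 of the 12 on the array were above the floor on all arrays, and the sums ran from 12.18 to 12.92 in WT and 11.01 to 12.15 in Null. Of 8 smooth muscle genes 3 were higher, with sums of 15.48 to 15.88 and 15.34 to 15.51. In the smaller lists 1 gene rose and 1 fell of 7 macrophage genes (Cd68 1.25, Mrc1 -0.97; sums of 9.33 to 10.18 and 9.34 to 10.08) and of 7 striated muscle genes (Acta1 1.79, Tnnt1 -0.79; sums of 10.43 to 12.34 in WT and 9.60 to 10.34 in Null), 1 fell of 5 bone genes (Phex -0.76) and of 3 adipocyte genes (Lpl -1.32), and limma called none of 6 endothelial and 7 cartilage genes.

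**Figure D2:**
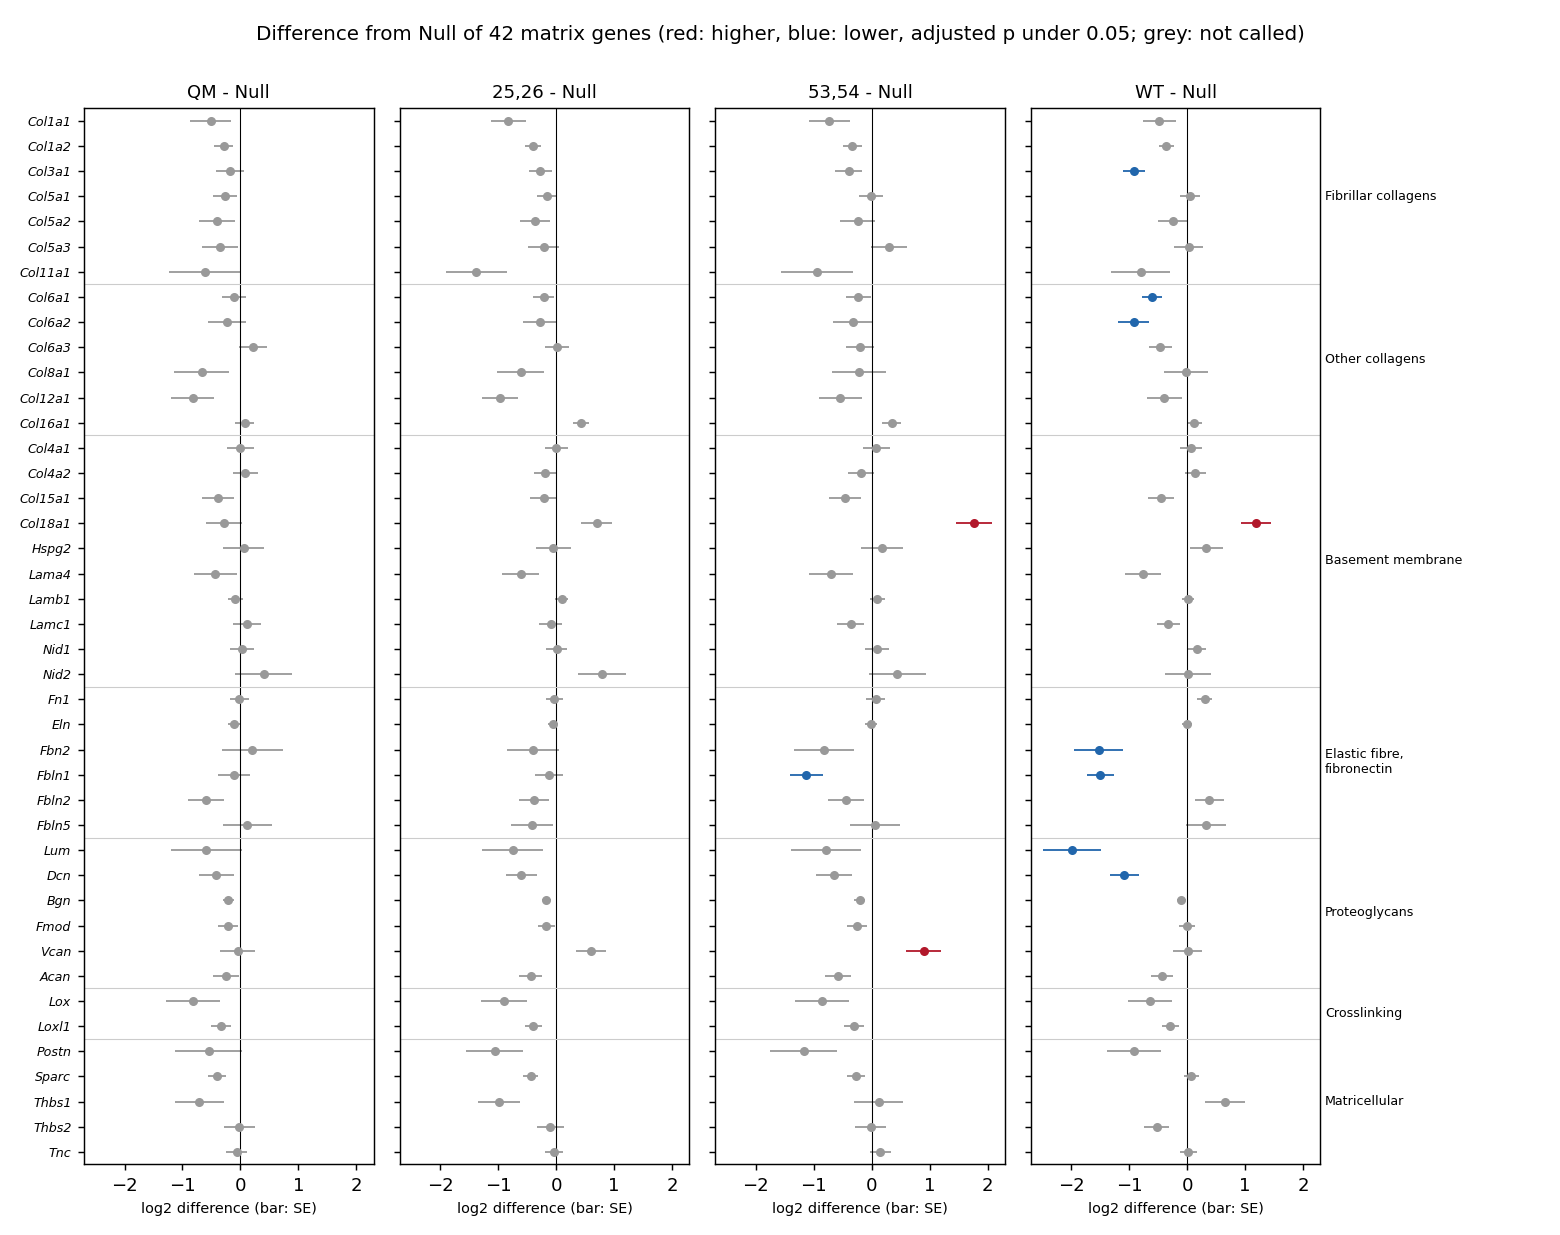
Log2 difference from Null (horizontal axis, with the standard error as a bar) of each matrix gene (vertical axis, grouped by role) in QM, 25,26, 53,54 and WT. Red points were called higher and blue points lower. No point is coloured in QM or 25,26, 3 are coloured in 53,54 and 8 in WT.

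Promoter sequences are shown for Col18a1, which was higher in WT, and for Fbln1, Col3a1, Col6a1 and Col6a2, which were lower. They give the sequence that precedes the annotated starts. Each line holds the 250 bases before the annotated start in RefSeq's table for the build GRCm38.p6, read 5′ to 3′ on the gene's own strand, with capitals at every match to the motifs searched. The motifs were CCAAT, the box bound by the factor NF-Y, then TATAAA, the core promoter element, then GGGCGG, the GC box bound by Sp1, then TGANTCA, the site of AP-1, and the p53 half-site, each searched on both strands, so a box can appear as its reverse complement.
Col18a1, upstream start, chr10:77166531-77166780, minus strand: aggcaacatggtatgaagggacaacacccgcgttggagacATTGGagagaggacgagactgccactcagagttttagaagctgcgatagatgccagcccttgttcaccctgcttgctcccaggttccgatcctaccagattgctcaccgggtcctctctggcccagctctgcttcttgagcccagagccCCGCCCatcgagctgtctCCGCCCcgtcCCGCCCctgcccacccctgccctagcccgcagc
Col18a1, downstream start, chr10:77113706-77113955, minus strand: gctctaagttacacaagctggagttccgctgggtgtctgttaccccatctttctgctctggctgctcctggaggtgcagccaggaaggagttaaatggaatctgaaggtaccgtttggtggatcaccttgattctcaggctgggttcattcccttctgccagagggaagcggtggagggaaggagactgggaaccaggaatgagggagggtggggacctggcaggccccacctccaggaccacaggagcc
Fbln1, chr15:85205699-85205948, plus strand: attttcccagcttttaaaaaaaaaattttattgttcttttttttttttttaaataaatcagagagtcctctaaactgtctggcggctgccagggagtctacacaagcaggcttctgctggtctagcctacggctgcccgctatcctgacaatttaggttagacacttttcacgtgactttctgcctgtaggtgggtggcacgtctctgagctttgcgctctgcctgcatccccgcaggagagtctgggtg
Col3a1, chr1:45311288-45311537, plus strand: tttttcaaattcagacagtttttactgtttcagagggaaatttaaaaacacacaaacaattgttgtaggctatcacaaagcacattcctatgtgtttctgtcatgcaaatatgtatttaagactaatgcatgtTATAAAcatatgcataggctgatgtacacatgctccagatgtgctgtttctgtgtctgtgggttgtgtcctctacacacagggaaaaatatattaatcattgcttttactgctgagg
Col6a1, chr10:76726045-76726294, minus strand: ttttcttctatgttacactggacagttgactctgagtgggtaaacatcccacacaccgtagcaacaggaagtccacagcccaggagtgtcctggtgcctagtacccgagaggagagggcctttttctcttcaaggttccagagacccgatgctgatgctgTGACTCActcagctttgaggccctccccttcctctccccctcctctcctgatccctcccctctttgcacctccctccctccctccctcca
Col6a2, chr10:76623631-76623880, minus strand: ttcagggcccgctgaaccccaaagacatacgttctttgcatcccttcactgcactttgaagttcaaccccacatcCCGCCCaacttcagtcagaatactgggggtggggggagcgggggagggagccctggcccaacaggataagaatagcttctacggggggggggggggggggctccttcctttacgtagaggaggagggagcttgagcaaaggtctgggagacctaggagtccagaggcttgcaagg
The upstream Col18a1 start had 1 CCAAT at -210 and 3 GC boxes at -61, -43 and -33, counted from the start, and the downstream start had no match. Col3a1 had a TATAAA at -117, Col6a1 a TGANTCA at -90 and the upstream Col6a2 start a GC box at -175. The upstream Fbln1 start had no match. Fbln1 and Col6a2 each have a second annotated start a short way downstream, whose windows overlap the ones shown and are not printed: that of Fbln1 (chr15:85205758-85206007) held a GC box at -11, and that of Col6a2 (chr10:76623405-76623654) held 3, at -67, -15 and -11. Of the 42 genes, 28 were found in the promoter table, and the other called genes, Lum, Dcn and Fbn2, are not shown. These 28 genes have 34 windows, some of which overlap. Counted per window, 38.2% held a CCAAT against 33.8% of all 32851 promoter windows of this length, 61.8% a GC box against 32.7%, 14.7% a TATAAA against 12.4%, 2.94% a TGANTCA against 6.75% and 5.88% a p53 half-site against 7.13%. The median GC content of the matrix windows was 61.4% against 52.4%. The half-sites lay in Sparc and Nid1, neither of which was called between WT and Null. A match is a string of letters and not a measured site.

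Among the basement membrane genes, Col18a1, which encodes the collagen whose C-terminal fragment is endostatin, was the gene that rose. In Null it lay at 10.06, 9.93 and 10.42 in LSL-WT Empty and 10.39, 9.68 and 9.54 in Null Cre, and in QM at 10.03, 9.78 and 9.37. In 25,26 it lay at 10.05, 11.62, 11.12, 10.37 and 10.41, in 53,54 at 12.16, 11.81 and 11.37, and in WT at 11.39, 11.58 and 11.42 in LSL-WT Cre and 10.41, 11.59 and 10.76 in WT Cre. All 53,54 arrays lay above all Null and QM arrays, 1 WT array fell inside the Null range, and the 25,26 arrays spread over both. The difference from Null was 1.19 in WT (SE 0.26, a 2.27-fold rise, adjusted p = 0.0015) and 1.77 in 53,54 (SE 0.31, 3.42-fold, adjusted p = 2.5e-04), against 0.71 in 25,26 (adjusted p = 0.16) and -0.28 in QM (adjusted p = 0.9998). In the order QM, Null, 25,26, WT, 53,54 the SDs of neighbouring groups overlapped, and 53,54 exceeded WT by 0.59 (adjusted p = 0.75). QM differed from WT by -1.46, a called difference (adjusted p = 0.0027). With the title-number block the 25,26 difference was also called, at 0.86 (adjusted p = 0.024). The second Col18a1 probe set gave 1.25 in WT (adjusted p = 0.0039 over all probe sets).

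The other collagens of the basement membrane, Col4a1 and Col4a2, which share a chromosome 8 locus as adjacent genes, differed by 0.07 and 0.14 between WT and Null and were not called. The laminin chain genes Lamb1 (0.01) and Lamc1 (-0.33), the nidogen genes Nid1 (0.16) and Nid2 (0.02), and Hspg2, which encodes perlecan (0.33), were not called either. The laminin gene Lama4 (-0.76, adjusted p = 0.081) and Col15a1 (-0.45, adjusted p = 0.17), the closest relative of Col18a1, missed the threshold. With Null Cre alone as the control, both were called lower (Lama4 -1.16, adjusted p = 0.021; Col15a1 -0.78, adjusted p = 0.041).

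Fbln1, which encodes fibulin-1, a protein of basement membranes and elastic fibres, had the smallest adjusted p of the 42 genes between WT and Null. Its Null levels were 10.69, 11.59 and 10.69 in LSL-WT Empty and 11.68, 10.88 and 10.65 in Null Cre, and its QM levels 10.77, 11.22 and 10.77. The 25,26 arrays stood at 10.99, 11.39, 10.91, 10.55 and 10.70, the 53,54 arrays at 10.37, 9.49 and 9.86, and the WT arrays at 9.65, 10.42 and 9.57 in LSL-WT Cre and 9.04, 9.26 and 9.23 in WT Cre. Every WT and every 53,54 array lay below every Null, QM and 25,26 array. Among the 8 called genes Fbln1 was alone in having WT and Null ranges that did not overlap, which held for 10.2% of all genes. The difference was -1.502 in WT (SE 0.23, 2.83-fold lower, adjusted p = 5.6e-05) and -1.13 in 53,54 (SE 0.28, 2.19-fold lower, adjusted p = 0.0062). In 25,26 and QM the differences were -0.12 (adjusted p = 0.87) and -0.11 (adjusted p = 0.9998). Against WT, Fbln1 was called higher in 25,26 by 1.38 (adjusted p = 0.0012) and in QM by 1.39 (adjusted p = 0.0019), and 53,54 differed from WT by 0.37 (SE 0.28, adjusted p = 0.85). A second Fbln1 probe set gave -1.07 between WT and Null (adjusted p = 0.011), while a dim one gave 0.04 (adjusted p = 0.90). Averaged over its probe sets Fbln1 gave -0.84 in WT (adjusted p = 4.1e-04) and -0.74 in 53,54 (adjusted p = 0.0079) against Null, and 0.80 in 25,26 (adjusted p = 0.0045) and 0.82 in QM (adjusted p = 0.0057) against WT. Without 53,54 replicate 3 the 53,54 difference was no longer called (adjusted p = 0.069).

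Fbn2 encodes fibrillin-2, a microfibril protein made mainly in development. It lay at 10.88, 11.95 and 11.41 in LSL-WT Empty and 10.79, 10.56 and 10.26 in Null Cre, at 10.66, 11.59 and 11.29 in QM, at 10.25, 11.25, 10.52, 10.32 and 10.51 in 25,26 and at 10.61, 9.998 and 9.85 in 53,54. LSL-WT Cre arrays stood at 10.16, 10.07 and 10.49, and WT Cre arrays at 7.65, 7.99 and 10.33. A pair of WT Cre arrays lay far below all others, and the other 4 WT arrays lay within the low end of the Null range or just under it. The difference between WT and Null was -1.53 (SE 0.43, 2.88-fold lower, adjusted p = 0.011), and that between QM and WT 1.73 (adjusted p = 0.029). Against Null Cre alone the WT difference was -1.09 and not called (adjusted p = 0.18), and without the 7 arrays of title number 2 it was -1.12 (adjusted p = 0.13), and a fit of the compared arrays alone left it just over the threshold (adjusted p = 0.054). The QM call was lost without QM replicate 2, QM replicate 3 or WT replicate 5, with an adjusted p of up to 0.13. A second Fbn2 probe set fell by 1.69 in WT (adjusted p = 0.0094).

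The remaining genes of this role were not called between WT and Null. Fn1, which encodes fibronectin, the cell-adhesive scaffold of early matrix, differed by 0.30 (adjusted p = 0.12), Fbln5 by 0.32 and Eln, which encodes elastin, by 0.00. Fbln2, which encodes fibulin-2, differed by 0.38 between WT and Null (adjusted p = 0.33). It lay at 11.89, 12.49 and 11.94 in QM, 12.72, 12.49, 12.31, 11.996 and 12.08 in 25,26, 12.75, 11.91 and 12.11 in 53,54 and 12.70, 13.12, 12.54, 13.33, 13.73 and 13.03 in WT, and from 11.95 to 13.82 in Null, with a median of 12.66. All 3 QM arrays lay below all 6 WT arrays, and QM was called lower than WT (-0.97, adjusted p = 0.038), with -0.58 for the average of its probe sets (adjusted p = 0.029). That call was lost in 6 of 9 fits that left out 1 array, those without QM replicates 1 or 3 or WT replicates 2, 4, 5 or 6 (adjusted p up to 0.16), and with LSL-WT Cre alone as WT (adjusted p = 0.27).

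Among the small leucine-rich proteoglycans, Lum and Dcn, which encode lumican and decorin, both binders of collagen fibrils, were lower in WT. Lum lay at 11.58, 10.53 and 12.57 in LSL-WT Empty, 13.29, 12.78 and 12.82 in Null Cre, 12.05, 11.54 and 11.43 in QM, 10.58, 11.63, 11.68, 12.14 and 11.54 in 25,26 and 11.38, 11.11 and 11.95 in 53,54. It lay at 11.03, 9.18 and 12.03 in LSL-WT Cre and 9.09, 9.10 and 11.23 in WT Cre. The Null Cre arrays were the 3 highest and 3 WT arrays the 3 lowest, and LSL-WT Empty overlapped LSL-WT Cre. The difference between WT and Null was -1.99 (SE 0.50, 3.96-fold lower, adjusted p = 0.0053), the widest in size of the 42 genes.

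Dcn lay at 11.75, 12.43 and 12.34 in LSL-WT Empty and 13.90, 13.05 and 13.10 in Null Cre, at 12.44, 12.53 and 12.07 in QM, at 11.91, 12.35, 11.89, 12.37 and 12.28 in 25,26, at 12.37, 11.62 and 12.34 in 53,54, and at 11.53, 11.69 and 12.16 in LSL-WT Cre and 11.50, 11.56 and 11.58 in WT Cre. Again the Null Cre arrays stood above all others. The difference between WT and Null was -1.09 (SE 0.25, 2.13-fold lower, adjusted p = 0.0025), and a dim second probe set gave -0.34 (adjusted p = 0.12), so that their average was -0.72 (adjusted p = 0.0042). Against Null Cre alone the difference was -1.68 (adjusted p = 2.7e-05). With LSL-WT Empty alone as the control neither was called: Dcn gave -0.50 (adjusted p = 0.096) and Lum -1.28 (adjusted p = 0.16). Against Null Cre alone Dcn was called lower in 25,26 (-1.19, adjusted p = 0.0037) and in 53,54 (-1.24, adjusted p = 0.0015) as well, where it was not called against all Null arrays (-0.60 and -0.65). Dcn and Lum are neighbours on chromosome 10, with no protein-coding gene between them in RefSeq's annotation.

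Bgn and Fmod, which encode the related biglycan and fibromodulin, differed by -0.10 and -0.01 between WT and Null and were not called. Of the large aggregating proteoglycans, Vcan, which encodes versican, was not called there (0.01, adjusted p = 0.99) but was higher in 53,54. The line comparisons joined in that 0.01 had opposite signs. Vcan differed by 0.59 between LSL-WT Cre and LSL-WT Empty and by -0.58 between WT Cre and Null Cre, neither called. Vcan lay at 11.38, 11.49 and 11.46 in 53,54 and 11.08, 10.82, 11.38, 11.26 and 11.20 in 25,26, against 9.52, 10.73 and 9.86 in LSL-WT Empty, 11.11, 10.84 and 11.19 in Null Cre, 10.15, 10.46 and 10.88 in QM, 10.24, 11.30 and 10.34 in LSL-WT Cre and 10.33, 10.29 and 10.77 in WT Cre. All 53,54 arrays lay above all Null and all WT arrays. The difference from Null was 0.90 (SE 0.30, 1.87-fold, adjusted p = 0.037) in 53,54 and 0.61 (adjusted p = 0.22) in 25,26, and 53,54 exceeded WT by 0.90 without passing the threshold (adjusted p = 0.35). Averaged over its 8 probe sets, 5 of them dim, Vcan gave 0.37 in 53,54 (SE 0.13, adjusted p = 0.043), and the other pair of brighter probe sets gave 0.70 (adjusted p = 0.089) and 0.89 (adjusted p = 0.022 over all probe sets). The 53,54 call depended on the control: it was 1.41 against LSL-WT Empty alone (adjusted p = 0.0019) and 0.40 against Null Cre alone (adjusted p = 0.32). It was lost in a fit of the compared arrays alone (adjusted p = 0.11) and in 5 of 9 fits that left out 1 array, those without any of the 3 53,54 replicates or without Null replicate 1 or 3, with an adjusted p of up to 0.12. In 25,26, Vcan was called higher against LSL-WT Empty alone (1.11, adjusted p = 0.023).

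**Figure D3:**
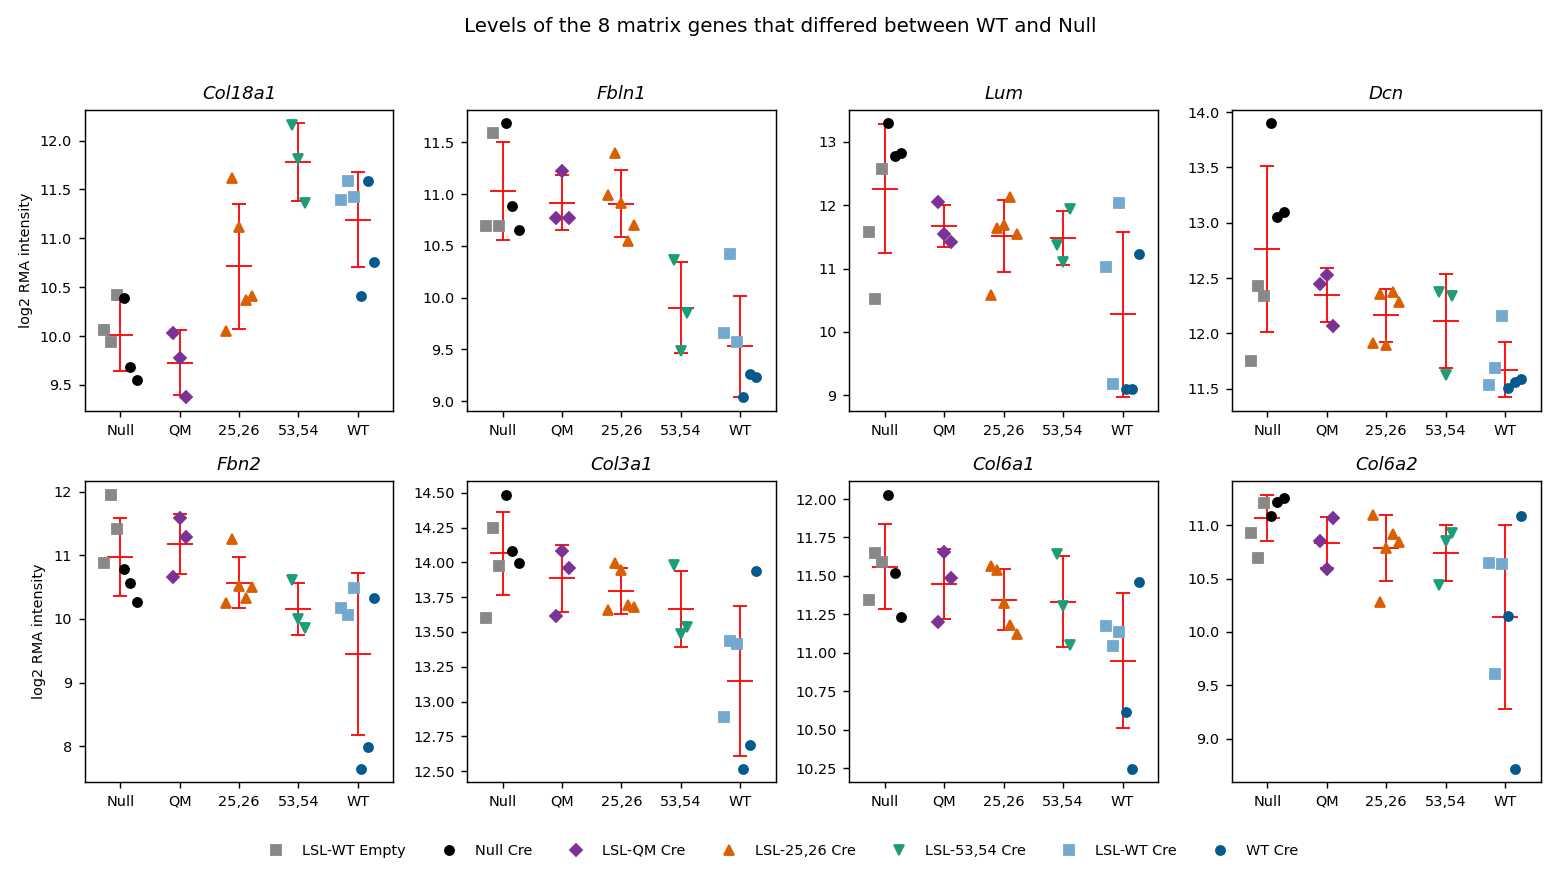
Log2 level (vertical axis) of the 8 matrix genes called between WT and Null in each array, by group (horizontal axis). Symbols mark the line and virus, and red bars give the group mean and SD. For Fbln1 the WT arrays span 9.04 to 10.42 and lie below all Null arrays (10.65 to 11.68), and for Dcn the Null Cre arrays lie above all others.

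The fibrillar collagens form the bulk of interstitial matrix. Col3a1, which encodes type III collagen, was the called gene of this role. It lay at 13.60, 14.25 and 13.98 in LSL-WT Empty, 14.49, 14.08 and 13.99 in Null Cre, 13.61, 14.08 and 13.96 in QM, 13.66, 13.99, 13.95, 13.69 and 13.68 in 25,26, 13.98, 13.49 and 13.53 in 53,54, 12.89, 13.44 and 13.41 in LSL-WT Cre and 12.52, 12.69 and 13.94 in WT Cre. The WT arrays lay below all Null arrays with the exception of WT replicate 6. The difference was -0.92 between WT and Null (SE 0.19, 1.89-fold lower, adjusted p = 0.0013), against -0.40 in 53,54, -0.27 in 25,26 and -0.18 in QM, none of these 3 called. QM exceeded WT by 0.74 (adjusted p = 0.040), a call lost in 5 of 9 fits that left out 1 array (without QM replicates 2 or 3, or WT replicates 1, 4 or 5; adjusted p up to 0.17). The QM call was also lost under 5 of 13 other alternatives. These were the mean of its probe sets, the compared arrays alone, title number 2 left out, and either WT line alone as WT. The dimmer Col3a1 probe set fell by 1.44 in WT (adjusted p = 0.0030).

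Col1a1 and Col1a2 encode the chains of type I collagen, the main fibril protein. Between WT and Null they differed by -0.48 (adjusted p = 0.27) and -0.36 (adjusted p = 0.056), and a dimmer Col1a2 probe set was called lower (-0.73, adjusted p = 0.029), as was Col1a2 against Null Cre alone (-0.54, adjusted p = 0.016) or as the mean of its probe sets (-0.66, adjusted p = 0.019). In 53,54 with the block, Col1a1 was called lower (-0.68, adjusted p = 0.042). The type V genes Col5a1 (0.05), Col5a2 (-0.25) and Col5a3 (0.03), whose products start and limit fibrils, were not called, nor was Col11a1 (-0.81, adjusted p = 0.30), which spread from 5.92 to 9.74 over the arrays. Col5a2 lies beside Col3a1 on chromosome 1.

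Of the other collagens, Col6a1 and Col6a2, adjacent genes on chromosome 10 whose chains join Col6a3 in type VI microfilaments, were lower in WT. Col6a1 lay at 11.34, 11.65 and 11.59 in LSL-WT Empty, 12.03, 11.52 and 11.23 in Null Cre, 11.20, 11.66 and 11.49 in QM, 11.56, 11.54, 11.33, 11.18 and 11.12 in 25,26, 11.64, 11.30 and 11.05 in 53,54, 11.17, 11.05 and 11.14 in LSL-WT Cre and 10.62, 10.25 and 11.46 in WT Cre. The difference between WT and Null was -0.61 (SE 0.17, 1.53-fold lower, adjusted p = 0.012), and the groups overlapped only through WT replicate 6.

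Col6a2 lay at 10.93, 10.69 and 11.21 in LSL-WT Empty, 11.09, 11.22 and 11.26 in Null Cre, 10.85, 10.59 and 11.07 in QM, 11.09, 10.28, 10.79, 10.92 and 10.84 in 25,26, 10.44, 10.85 and 10.93 in 53,54, 10.65, 9.61 and 10.63 in LSL-WT Cre and 10.15, 8.72 and 11.09 in WT Cre. WT replicate 5 was the lowest and WT replicate 6 lay inside the Null range. The difference was -0.92 (SE 0.27, 1.90-fold lower, adjusted p = 0.016), and a second probe set gave -0.78 (adjusted p = 0.027). Without the arrays of title number 2 the Col6a2 difference was -0.52 (adjusted p = 0.030). Both type VI calls were lost against LSL-WT Empty alone (Col6a1 -0.58, adjusted p = 0.065; Col6a2 -0.80, adjusted p = 0.15). Col6a1 was also lost against Null Cre alone (adjusted p = 0.057) and without the arrays of title number 2 (-0.32, adjusted p = 0.20), and Col6a2 with Xist, the RNA that coats the inactive X chromosome in female cells, as a covariate (adjusted p = 0.064) and in a fit of the compared arrays alone (adjusted p = 0.065).

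Col6a3 (-0.46, adjusted p = 0.10), Col8a1 (-0.02), Col12a1 (-0.40) and Col16a1 (0.12) were not called between WT and Null. Col16a1, a fibril-associated collagen gene, was called higher with the block in 25,26 (0.54, adjusted p = 2.3e-04) and 53,54 (0.35, adjusted p = 0.0045), and without the block it was not (0.43, adjusted p = 0.093, and 0.35, adjusted p = 0.16). On chromosome 10, Col6a1 and Col18a1 are separated by Pcbp3 and Slc19a1 alone among protein-coding genes, and their WT differences had opposite signs (-0.61 and 1.19).

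Lox and Loxl1 encode lysyl oxidases, which oxidise lysines of collagen and elastin so that the chains crosslink. Lox differed from Null by -0.64 in WT, -0.89 in 25,26, -0.86 in 53,54 and -0.81 in QM, and Loxl1 by -0.29, -0.39, -0.31 and -0.33, with no call (adjusted p from 0.16 to 0.9998 over both genes). The comparisons share the Null arrays. Lox lay at 13.20, 12.71 and 12.95 in Null Cre, above every array with LSL in its title. LSL-WT Empty lay at 11.55, 11.63 and 11.86, and the 14 arrays titled LSL with Cre ranged from 10.37 to 12.01. The WT Cre arrays lay at 12.57, 11.27 and 12.98, and the last of these, WT replicate 6, carries an LSL-WT genotype label. With Null Cre alone as control Lox was called lower in WT (-1.28, adjusted p = 0.046) and 53,54 (-1.50, adjusted p = 0.047).

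Of the matricellular genes, Thbs1 and Thbs2 encode thrombospondins, secreted inhibitors of angiogenesis, and Sparc encodes osteonectin, a collagen-binding protein. Thbs1 lay at 11.37, 11.97 and 10.73 in LSL-WT Empty, 13.04, 12.03 and 12.11 in Null Cre, 10.84, 11.36 and 11.29 in QM, 11.72, 10.48, 10.56, 10.78 and 10.93 in 25,26, 12.64, 12.04 and 11.31 in 53,54, 11.74, 12.37 and 11.70 in LSL-WT Cre and 13.08, 13.11 and 13.21 in WT Cre. The WT Cre arrays were the highest and 4 of 5 25,26 arrays lay below all WT arrays. Thbs1 was lower than WT in 25,26 (-1.64, SE 0.36, 3.12-fold lower, adjusted p = 0.0070) and in QM (-1.37, SE 0.42, 2.59-fold lower, adjusted p = 0.033), and its difference between WT and Null was 0.66 (adjusted p = 0.20). With LSL-WT Cre alone as WT neither was called (25,26 -1.04, adjusted p = 0.19; QM -0.77, adjusted p = 0.36).

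Sparc lay at 13.73, 13.54 and 13.63 in LSL-WT Empty, 14.15, 13.47 and 13.44 in Null Cre, 12.96, 13.55 and 13.23 in QM, 13.22, 13.42, 13.26, 13.14 and 13.07 in 25,26, 13.67, 13.33 and 13.16 in 53,54, 13.67, 13.52 and 13.65 in LSL-WT Cre and 13.71, 13.80 and 14.06 in WT Cre. All 25,26 arrays lay below all WT arrays and all Null arrays. Sparc was lower than WT in 25,26 (-0.51, SE 0.13, 1.42-fold lower, adjusted p = 0.019) and in QM (-0.48, SE 0.15, 1.40-fold lower, adjusted p = 0.039), while the difference of 25,26 from Null was -0.44 (adjusted p = 0.065). With LSL-WT Cre alone as WT neither difference from WT was called (25,26 -0.39, adjusted p = 0.23; QM -0.36, adjusted p = 0.24). The 25,26 call was lost without 25,26 replicate 4 or 5 (adjusted p up to 0.061).

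In QM with WT, single arrays decided the matricellular calls. Sparc was no longer called without QM replicates 1 or 3 or WT replicates 4, 5 or 6 (adjusted p up to 0.27). Thbs1 was no longer called without any of the 3 QM replicates or WT replicates 4, 5 or 6 (adjusted p up to 0.15). The Sparc call was also lost for the mean of its probe sets, with median centring and in the compared arrays alone. That of Thbs1 was lost in the compared arrays alone and without the arrays of title number 2. Postn, which encodes periostin, spread from 8.93 to 13.28 over the arrays and differed from Null by -0.92 in WT, -1.06 in 25,26, -1.17 in 53,54 and -0.55 in QM with no call. Tnc, which encodes tenascin-C, differed by 0.02 between WT and Null and by at most 0.15 in size in each of the 4 comparisons with Null.

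**Figure D4:**
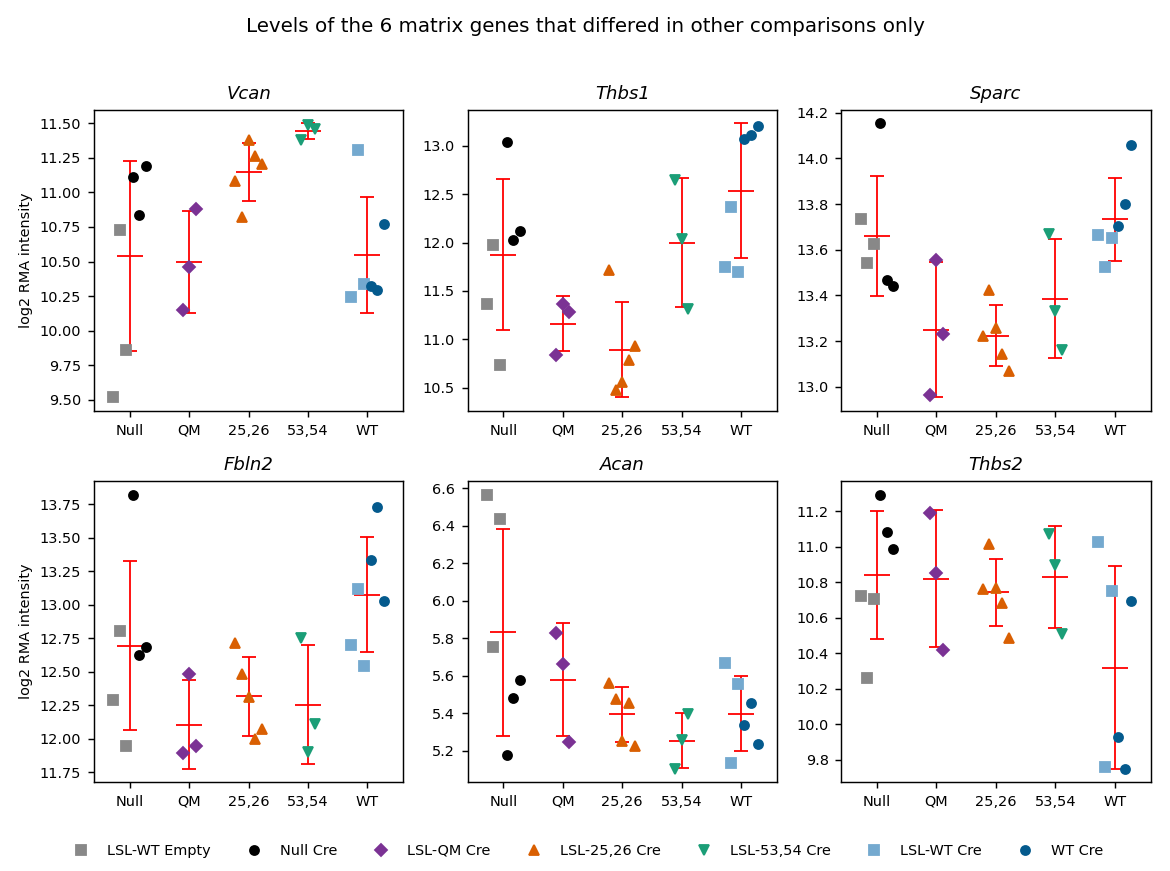
Log2 level (vertical axis) in each array of the 6 matrix genes that were called in other comparisons only, by group (horizontal axis), with symbols for line and virus and red bars for the group mean and SD. Vcan in 53,54 spans 11.38 to 11.49, above all Null and WT arrays, and the highest Acan levels are those of a pair of LSL-WT Empty arrays.

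In 53,54 against Null 3 genes were called, 2 higher (Col18a1, Vcan) and 1 lower (Fbln1), beside 19.6% of all genes (9.22% higher, 10.3% lower), so the matrix share was below that of all genes. With the title-number block the count was 5 beside 31.8% of all genes, with Col1a1 and Col16a1 added. In 25,26 against Null limma called 0 of 42 beside 4.30% of all genes (3.02% higher, 1.28% lower). At an unadjusted p under 0.05 were 14 of 42 matrix genes and 16.5% of all genes. The block gave 2 calls there beside 14.2% of all genes. In QM against Null limma called 0 beside 0.0131% of all genes, with 3 of 42 at an unadjusted p under 0.05 beside 2.47% of all genes. The median difference of the 42 genes was -0.21 in 25,26, -0.23 in 53,54 and -0.22 in QM, against 0.01, -0.02 and 0.01 over all genes, and these comparisons share the 6 Null arrays with one another and with WT.

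Against WT, 25,26 had 3 called genes (Fbln1 higher, Sparc and Thbs1 lower) beside 7.70% of all genes (4.34% higher, 3.36% lower). With the block it had 6 beside 12% of all genes, which added Col3a1 (0.69, adjusted p = 0.019), Col16a1 (0.42, adjusted p = 0.0030) and Lamc1 (0.56, adjusted p = 0.0057). In the main fit without WT replicate 3 the count was 6. QM had 7 called genes, Col3a1, Fbn2 and Fbln1 higher and Col18a1, Fbln2, Sparc and Thbs1 lower, beside 13.9% of all genes (8.16% higher, 5.76% lower). That count was 2 to 4 without QM replicate 1, 2 or 3 or WT replicate 4, 5 or 6. With the block QM had 9 beside 26.4% of all genes, with Col6a3 (0.67, adjusted p = 0.035) and Lamc1 (0.44, adjusted p = 0.014) added. In 53,54 limma called 0 matrix genes against WT beside 0.367% of all genes, with 4 of 42 and 7.21% of all genes at an unadjusted p under 0.05. These were Vcan (0.90), Fbln2 (-0.82), Col3a1 (0.52) and Sparc (-0.35).

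Some matrix genes had groups whose arrays did not overlap at all, and the share of all genes is given beside each. Against Null these were Fbln1 in WT (10.2% of all genes did not overlap there) and Sparc in 25,26 (5.00%). In 53,54 they were 3 of 42, Col18a1, Fbln1 and Vcan (19.7% of all genes), while QM had none (1.43%). Against WT these were Fbln1 and Sparc in 25,26 (4.43% of all genes), Vcan in 53,54 (2.59%) and 5 of 42 in QM, Col18a1, Fbn2, Fbln1, Fbln2 and Thbs1 (15.3%).

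The WT comparison falls into separate parts by line that share no array, LSL-WT Cre with LSL-WT Empty and WT Cre with Null Cre. In the LSL-WT lines 3 genes were called beside 11.7% of all genes (4.80% higher, 6.89% lower): Col18a1 rose by 1.32 (SE 0.35, adjusted p = 0.017), Fbln1 fell by 1.11 (SE 0.30, adjusted p = 0.019) and Acan, which encodes aggrecan, fell by 0.80 (SE 0.19, adjusted p = 0.0086). Acan lay at 6.56, 5.75 and 6.44 in LSL-WT Empty and at 5.67, 5.13 and 5.55 in LSL-WT Cre, and from 5.10 to 5.83 in the other 17 arrays, so that a pair of LSL-WT Empty arrays stood above every other array and the last lay within the range of the rest. With the block 6 genes were called there beside 26.7% of all genes, with Col3a1 (-0.70, adjusted p = 0.033), Lamc1 (-0.35, adjusted p = 0.039) and Fbln2 (0.44, adjusted p = 0.048) added. The count of the main fit fell to 1 without WT replicate 2 or Null replicate 1. Col18a1 was no longer called there without WT replicate 2 or Null replicates 1 or 2 (adjusted p up to 0.069), Acan without WT replicate 2 or Null replicate 1 (up to 0.070), and Fbln1 without WT replicates 1 or 3 or Null replicate 2 (up to 0.12). The average of the Fbln1 probe sets gave -0.61 there and was not called (adjusted p = 0.057).

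Between WT Cre and Null Cre 9 genes were called beside 15.9% of all genes (8.75% higher, 7.19% lower). Col18a1 rose by 1.05 (adjusted p = 0.049), and 8 genes fell: Lum (-3.16, SE 0.63, 8.93-fold lower, adjusted p = 0.0018), Fbln1 (-1.89, adjusted p = 2.7e-04), Fbn2 (-1.88, adjusted p = 0.010), Dcn (-1.80, SE 0.25, 3.48-fold lower, adjusted p = 6.3e-05), Col6a2 (-1.20, adjusted p = 0.042), Col3a1 (-1.14, adjusted p = 0.0078), Thbs2 (-0.997, adjusted p = 0.020) and Col6a1 (-0.82, adjusted p = 0.026). Thbs2 lay at 9.93, 9.75 and 10.70 in WT Cre and 11.29, 11.09 and 10.99 in Null Cre, with no overlap, as for 26.9% of all genes. In the other arrays it ranged from 9.76 to 11.19. Xist is not balanced between these arrays. With it as a covariate Col18a1, Col6a1, Col6a2 and Thbs2 were no longer called, and 5 calls remained beside 8.55% of all genes. The count fell to 4 or 5 without Null replicate 5, WT replicate 4 or WT replicate 5. Lum, Dcn and Fbln1 stayed called whichever array was left out, with -1.08 for the average of the Fbln1 probe sets (adjusted p = 0.0011). Without the arrays of title number 2 Col6a1 gave -0.34 (adjusted p = 0.40) and Col6a2 -0.62 (adjusted p = 0.092), and Col3a1, Fbn2 and Thbs2 were not called either. Fbn2 was lost without WT replicate 4 or 5 (adjusted p up to 0.078), Col3a1 without WT replicate 4 (0.059), Thbs2 and Col6a1 without Null replicate 4 or 5 or WT replicate 4 or 5 (up to 0.10 and 0.16), Col6a2 without these or Null replicate 6 (up to 0.27), and Col18a1 without Null replicate 5 or 6 or WT replicate 5 or 6 (up to 0.25). With the block 14 genes were called beside 28.1% of all genes, although only 2 title numbers are shared there. The block added Col1a1 (-0.82, adjusted p = 0.034), Col15a1 (-0.84, adjusted p = 0.030), Lamc1 (-0.51, adjusted p = 0.0063), Postn (-1.65, adjusted p = 0.025) and Fn1 (0.47, adjusted p = 0.0043).

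Col18a1 and Fbln1 were called in both parts in the same direction in the main fit. Between WT Cre and Null Cre the Col18a1 call was lost under 6 of 11 alternatives other than leaving out 1 array. They were no filter on dim probe sets, the mean of its probe sets and quantile normalization. The others were strain or Xist as a term and the compared arrays alone. In the LSL-WT lines the Fbln1 call was lost under 2 of 11, the mean of its probe sets and the compared arrays alone. The difference between the parts was itself tested, and limma called 0 of 42 genes beside 0.00655% of all genes, with 5 of 42 and 7.81% of all genes at an unadjusted p under 0.05. These 5 were Dcn (-1.42, adjusted p = 0.18), Lum (-2.34, adjusted p = 0.47), Vcan (-1.17, adjusted p = 0.37), Thbs2 (-0.95, adjusted p = 0.56) and Acan (0.73, adjusted p = 0.46), given as WT Cre minus Null Cre less LSL-WT Cre minus LSL-WT Empty. For Lum and Dcn the controls also differed in level: Null Cre had means of 12.97 and 13.35, and LSL-WT Empty 11.56 and 12.17.

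**Figure D5:**
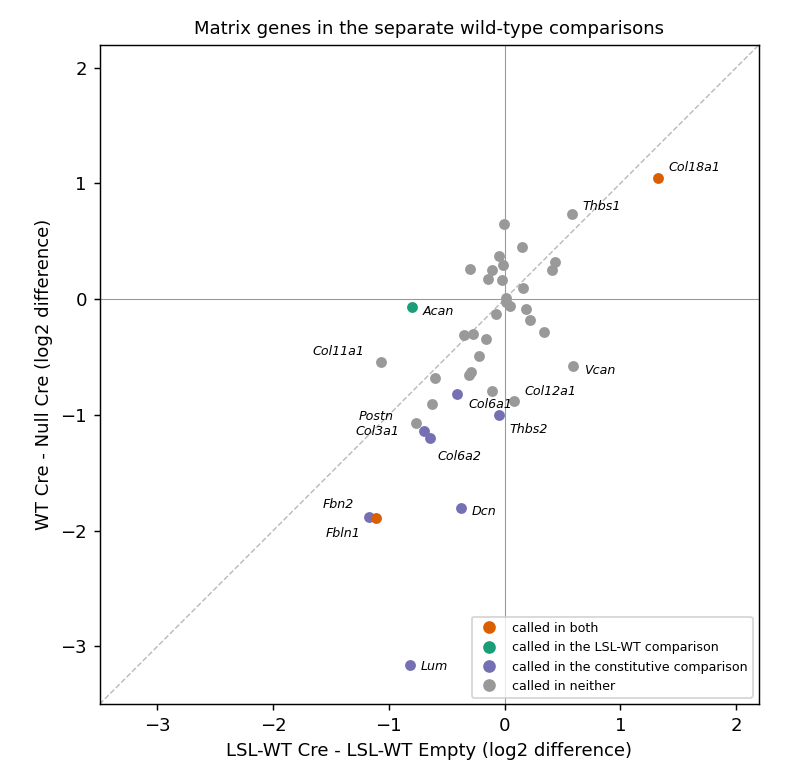
Log2 difference of each matrix gene between LSL-WT Cre and LSL-WT Empty (horizontal axis) and between WT Cre and Null Cre (vertical axis), with equality as a dashed line. Colours give the calls in each comparison, which share no array. Col18a1 and Fbln1 are called in both in the main fit, and Lum lies farthest from the dashed line, at -0.82 and -3.16.

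Other genes of the matrix pathway were counted from lists of pathway members. These lists were chosen with earlier results of these data known, so their shares are descriptions and not tests. The share of all genes called was 22.7% in WT, 19.6% in 53,54, 4.30% in 25,26 and 0.0131% in QM, each against Null. Of 22 tested collagen-processing genes 1 (4.55%) rose between WT and Null, Tll1 (1.11, adjusted p = 0.020), a tolloid protease that trims procollagens, and none fell. Of 23 genes of the TGF-beta axis, the growth factor pathway that drives matrix synthesis, 6 rose and 4 fell (43.5% called): Inhba (0.88), Eng (0.76) and Tgfbr2 (0.82) rose and Tgfbr3 (-0.78) fell. Of 47 further matrix genes 7 rose and 7 fell (29.8%), among them Ecm1 (1.29), Thbs3 (-0.89), Emilin2 (-1.38) and Epyc (-1.08). Of 20 matrix receptor genes 6 rose and none fell (30%), led by the integrin gene Itgb1 (0.55), the collagen receptor gene Ddr1 (0.97), the syndecan gene Sdc3 (0.76) and Itga6 (0.34). The same lists in 53,54 against Null gave 1 and 0, 3 and 1, 7 and 5, and 4 and 0 genes higher and lower, which is 4.55%, 17.4%, 25.5% and 20% of each list. In 25,26 they gave 0 and 0, 0 and 0, 1 and 1, and 1 and 0, and in QM limma called none of them.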

How the data were processed

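RNA of 23 samples was measured on mouse Affymetrix arrays. The authors deposited linear intensities, 1 per probe set, made with RMA per the submitters' processing notes; its version and options are not given in the sources used here. Array medians were 59.9 to 64.2, and the number of arrays limits the precision. The intensities were taken to log2. Of 45101 probe sets, 34945 name 1 gene symbol in the platform annotation, and each of 18193 genes took its probe set with the highest mean. Genes above the 30th percentile of all values on at least 3 arrays were tested (15266). A means model over all 23 arrays, with 5 groups or with 7 combinations of line and virus, was fitted in limma 3.58.1 (R 4.3.3), with Benjamini-Hochberg adjustment over all genes tested and a threshold of 0.05. The fit was tested on simulated data with independent arrays. Such data lack the shared deviations of same-numbered arrays, so the test cannot show how an unblocked fit handles them.

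The members and lists (roles, pathway lists and cell type markers) were chosen with earlier results of these data known. Members past the threshold in a comparison with Null or WT were named with the value in every array. Fbln2 is an exception, with its Null arrays given as a range and median. Of each pathway list, up to 4 genes past the threshold between WT and Null were named with their differences. These were the genes with the largest moderated statistic in size. Acan and Thbs2, called only within a line comparison, and the lysyl oxidase values were added after their values were seen. Alternatives were the filter, the probe set rule, quantile normalization, median centring, a trended and robust variance, strain, Xist or title number as a term, the compared arrays alone, single lines as controls, and each array left out. The p53 and H-Ras transcripts are not reported here.

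The title number was checked as a pairing on deviations from subgroup means. Same-numbered arrays had a median correlation of 0.40 over all genes, with 54 of 55 pairs over 0.1, against -0.14 for the 170 other pairs. By this check the numbers counted as pairing in each comparison with 3 or more such pairs, though the labels do not say what they mark. The main fits had no term for the number. Counts and adjusted p-values are therefore unpaired wherever the block is not named. Promoters are RefSeq's, for GRCm38.p6.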

Additional observations from a re-analysis of the deposited data

Results flagged for a closer look

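Within the groups of 5 and 6 arrays, 126 combinations of gene and group were screened for 1 array far from the others, and 7 were found; chance gives about 1 in 20. Of these, 3 fell on 25,26 replicate 2: Col5a1 was lowest there (11.3, nearest other array 11.83), Lox was lowest (10.62 against 11.51) and Fbn2 was highest (11.25 against 10.52). A further 2 fell on Null replicate 4, in which Col15a1 (7.78 against 6.50) and Loxl1 (12.6 against 12.13) were highest. Dcn was highest in WT replicate 3 (12.16 against 11.69), and Bgn in 25,26 replicate 1 (13.91 against 13.81).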

How the results depend on the processing

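Over the 33 called differences of single matrix genes, 404 values under alternatives other than leaving out 1 array kept the direction in every case and the call in 350, with 54 calls lost and 0 reversed. Between WT and Null the count of 8 stayed within 1.5 times under all alternatives, and from 8 to 11 with 1 array left out. With the title number as a replicate block, counts against Null were 11 for WT, 2 for 25,26 and 5 for 53,54. The shares of all genes there were 33.8%, 14.2% and 31.8%. Against WT the blocked counts were 6 for 25,26 and 9 for QM, beside 12% and 26.4% of all genes. They were 6 within the LSL-WT line and 14 for WT Cre and Null Cre, beside 26.7% and 28.1%. The block changed no other count. In what follows the share of all genes called is in brackets. Averaging all probe sets of a gene gave 1 for 25,26 and Null (4.41%) and 5 for 25,26 and WT (7.64%). Fits of the compared arrays alone, which have fewer samples, gave 4 for QM and WT (8.41%). They gave 1 within the LSL-WT line (5.29%) and 3 for WT Cre and Null Cre (7.77%). Xist as a covariate gave 5 for WT Cre and Null Cre (8.55%). Null Cre alone as Null gave 4 for 25,26 (2.76%) and 6 for 53,54 (14.8%). LSL-WT Empty alone gave 2 for 25,26 (3.08%). LSL-WT Cre alone as WT gave 1 for 25,26 (3.31%) and 2 for QM (10.2%), and WT Cre alone gave 6 for 25,26 (9.71%). Without the title number 2 arrays, 25,26 gave 1 (3.31%) and 53,54 gave 5 (16.7%) against Null. The last setting, LSL-WT Empty alone and WT Cre alone were chosen after seeing the data. Where not stated the cause was not tested. With 1 array left out, counts ran from 0 to 1 for 25,26 and Null (1 without Null replicate 1 or 2), 1 to 4 for 53,54 and Null (1 without 53,54 replicate 3), 2 to 6 for 25,26 and WT, 2 to 9 for QM and WT, 1 to 3 within the LSL-WT line and 4 to 9 for WT Cre and Null Cre. They were 0 to 0 for QM and Null, for 53,54 and WT and for the difference between the line comparisons.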
